A study of Sus scrofa with 12 samples.

Results

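The miR-181 family was examined at 2 ages in the testis of boars of the Hezuo (HZ) and Landrace (LC) breeds. Members were the listed miRNAs named miR-181, with or without the pig prefix and a letter from a to d. This gave 7 of the 1452 miRNAs in the count table, namely ssc-miR-181a, ssc-miR-181b, ssc-miR-181c, ssc-miR-181d-5p, ssc-miR-181d-3p, miR-181-x and miR-181-y. The small RNA libraries came from boars aged 30 or 120 days, in groups named Ha and Hb for the younger and older HZ boars and La and Lb for the younger and older LC boars, with 3 libraries in each of the 4 groups. No boar was labelled with a treatment or a genetic change, and all were castrated to obtain the testis. Each library holds a whole testis sample with all its cell types, and the methods mention pooling before RNA was extracted. Whether a library stands for a single boar is not stated, and p-values then measure only the spread between these libraries, which may be technical. The HZ pig is a small native breed of the Qinghai-Tibet Plateau that matures early, and the comparisons ask how testicular miRNAs differ with age and breed.

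MicroRNAs are short RNAs that guide Argonaute proteins to messenger RNAs, mainly through their seed, bases 2 to 8 from the 5′ end, and lower the output of their targets. The miR-181 family is conserved across vertebrates and is best known from developing T lymphocytes, where miR-181a tunes the sensitivity of the antigen receptor. It is also abundant in brain, endothelium and differentiating muscle. A hairpin gives a 5p strand and a 3p strand, and for the miR-181 family the 5p strand is the usual guide.

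The listed sequences are given first because the family is defined by them and because tags can be divided among miRNAs that lie close in sequence. They are written 5′ to 3′ as DNA letters, with the seed in capitals.
ssc-miR-181a: aACATTCAacgctgtcggtgagtt
miR-181-x: aACATTCAacgctgtcggtgaaa
ssc-miR-181c: aACATTCAacctgtcggtgagt
ssc-miR-181b: aACATTCAttgctgtcggtgggtt
ssc-miR-181d-5p: aACATTCAttgttgtcggtgggtt
miR-181-y: aCCATCGAccgttgagtggacc
ssc-miR-181d-3p: cCCACCGAgggatgaatgtcac
The first 5 sequences share the seed ACATTCA, and no other listed or predicted miRNA carried it. The rest, miR-181-y and ssc-miR-181d-3p, each had a seed of their own that no other listed miRNA carried. Counted from 1 at the 5′ end, ssc-miR-181b differs from ssc-miR-181a by A9T, C10T and A21G, and ssc-miR-181d-5p differs from ssc-miR-181b by C12T alone. The sequence of ssc-miR-181c lies 2 edits from that of ssc-miR-181a. The sequence miR-181-x shares its leading 21 bases with ssc-miR-181a and ends differently. No miRNA outside the family lay within 5 edits of a member. The meaning of the suffixes was read from other families: of the names ending in -x that lay within 3 edits of a pig miRNA of the same number with a named arm, 55 matched a 5p strand and none a 3p strand, and of those ending in -y, 50 matched a 3p strand and none a 5p strand. On this reading miR-181-y is a 3p strand, but the files do not say from which hairpin.

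In the RefSeq annotation of Sscrofa11.1 the family has 6 hairpin genes in 3 clusters, each holding a pair. MIR181A-2 (chromosome 1, 265497249 to 265497328) and MIR181B-2 (chromosome 1, 265499111 to 265499196) lie 1782 bases apart within the bounds of NR6A1, the gene of an orphan nuclear receptor known from germ cells. MIR181B-1 (chromosome 10, 21696492 to 21696571) and MIR181A-1 (chromosome 10, 21696653 to 21696756) lie 81 bases apart within the bounds of LOC110255652, which is annotated as protein-coding. MIR181D (chromosome 2, 65279773 to 65279852) and MIR181C (chromosome 2, 65279950 to 65280036) lie 97 bases apart and outside the bounds of any other annotated gene. The annotation table gives bounds and not exons. Counts of ssc-miR-181a and ssc-miR-181b can come from either of their hairpins and were not divided between them.

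Between 6520197 and 16874633 counts per library fell on listed miRNAs, and TMM factors, which scale libraries for composition, ranged from 0.694 to 1.195, with the lowest in Hb replicate 2. Levels are the authors' TPM, counts scaled to a total of each library and not to length. The TPM and count columns together put that total at 7423910 to 18967500, above the listed counts in every library, and the files do not say which tags it holds. The gonadal miRNA family miR-202 summed to 18675 to 21867 TPM in Ha and 9608 to 17266 in Hb. In LC boars it summed to 15272 to 17278 in La and 17966 to 24405 in Lb, so it moved in opposite directions with age in the breeds. The germ cell miRNAs ssc-miR-34c and miR-449 summed to 23.5 to 76.9 TPM in Ha and 2580 to 13177 in Hb, and 16.6 to 24.6 in La and 11279 to 13895 in Lb, and of these 4 miRNAs only miR-449-z was at 0 in a whole group, La. Leukocyte miRNAs, 12 of the families miR-142, miR-150, miR-155 and miR-223, summed to 1084 to 1129 TPM in Ha and 437 to 893 in Hb, and 1352 to 1481 in La and 776 to 1202 in Lb, and none was at 0 in a whole group. Striated muscle miRNAs (11) summed to 132 to 285 TPM in Ha and 453 to 745 in Hb, and 109 to 204 in La and 701 to 846 in Lb, with 1 at 0 in Hb and 1 in La, and endothelial miRNAs (4) to 12672 to 15839, 11458 to 12313, 11712 to 13364 and 8701 to 11243 TPM, with none at 0 in a group. In each of these lists the ages did not overlap within a breed, and their part in the miR-181 values was not tested. Not every member followed the sum of its list. Among others, the group means of miR-126-x and miR-126-y rose with age in HZ boars, and those of ssc-miR-223 and miR-142-x rose in LC boars. The mean of miR-202-y fell from 56.7 TPM in La to 40.5 in Lb, and that of ssc-miR-202-3p hardly changed (1339 and 1347). The rise of the miR-202 sum in LC boars was mainly that of ssc-miR-202-5p (14735 and 20071). Erythroid miRNAs (10, none at 0 in a group) overlapped between the ages in HZ boars (1357 to 1768 TPM in Ha and 863 to 2298 in Hb) but not in LC boars (2201 to 2468 in La and 1220.0 to 1272 in Lb). Epithelial miRNAs (8, with 1 at 0 in Hb) summed to at most 380.3 TPM and overlapped between the ages in both breeds. The comparisons share groups of libraries with each other. In whole testis, fewer cells of a type and less RNA per cell cannot be told apart.

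The 7 members together took a share of all listed counts of 1.64% ± 0.0790 (SD, n = 3) in Ha and 0.919% ± 0.146 in Hb, and 2.16% ± 0.0304 in La and 1.25% ± 0.0771 in Lb. The family was thus a smaller part of the miRNAs at 120 days, and no library at 120 days (at most 1.34%) reached the lowest library at 30 days (1.58%). The bulk was ssc-miR-181a, the 21st of all listed miRNAs by mean TPM, which took 83.8% ± 0.443 of the family's counts in Ha and 76.4% ± 1.77 in Hb, and 84.0% ± 0.491 in La and 79.4% ± 0.722 in Lb. At 30 days ssc-miR-181b came next in both breeds, followed by ssc-miR-181c, whose libraries overlapped those of miR-181-y in Ha but lay above them in La. At 120 days ssc-miR-181c was second by group mean in both breeds, and in Lb its libraries overlapped those of ssc-miR-181b. Then came miR-181-y and ssc-miR-181b, which overlapped in Hb and in Lb. The levels of ssc-miR-181d-5p and miR-181-x were lower still. They overlapped in Hb, and ssc-miR-181d-5p was the higher in every library of the other groups. The strand ssc-miR-181d-3p was near the limit of detection, with 1 to 5 counts in a library and 34 in all, and a count of 3, taken as the floor, is worth 0.158 to 0.404 TPM. The floor covers counting error only, since amplified tags without molecular identifiers are not independent molecules.

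The most abundant member, ssc-miR-181a, was lower at 120 days in both breeds. Its TPM in replicates 1, 2 and 3 was 11657, 12085 and 12847 in Ha and 6974, 5153 and 6370 in Hb. In LC boars it was 16339, 16302 and 15979 in La and 9188, 8499 and 8187 in Lb. In neither breed did the ages overlap, and every LC library lay above every HZ library of the same age. The log2 fold change, scaled by TMM, was -0.86 (standard error 0.220, Benjamini-Hochberg adjusted p = 0.00841 in the quasi-likelihood test of edgeR) between Ha and Hb and -1.09 (standard error 0.0886, adjusted p = 7.86e-07 in the same test) between La and Lb. The fall in HZ boars lost its call without Ha replicate 1 (-0.86, adjusted p = 0.100 by edgeR's test).

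Also lower at 120 days in both breeds was ssc-miR-181b, which shares a cluster with miR-181a at both of its loci. Its TPM was 819.9, 834 and 961 in Ha and 459, 281 and 434 in Hb, and it was 1093, 1048 and 1045 in La and 699, 584 and 618 in Lb. The ages did not overlap in either breed. The log2 fold changes were -1.06 (standard error 0.239, adjusted p = 0.00385 in edgeR's test) in HZ boars and -0.93 (standard error 0.0961, adjusted p = 8.74e-06) in LC boars. Hb replicate 2 held the lowest level of both miRNAs, and without it the log2 fold changes in Ha vs. Hb were -0.92 for ssc-miR-181a and -1.01 for ssc-miR-181b.

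**Figure D1:**
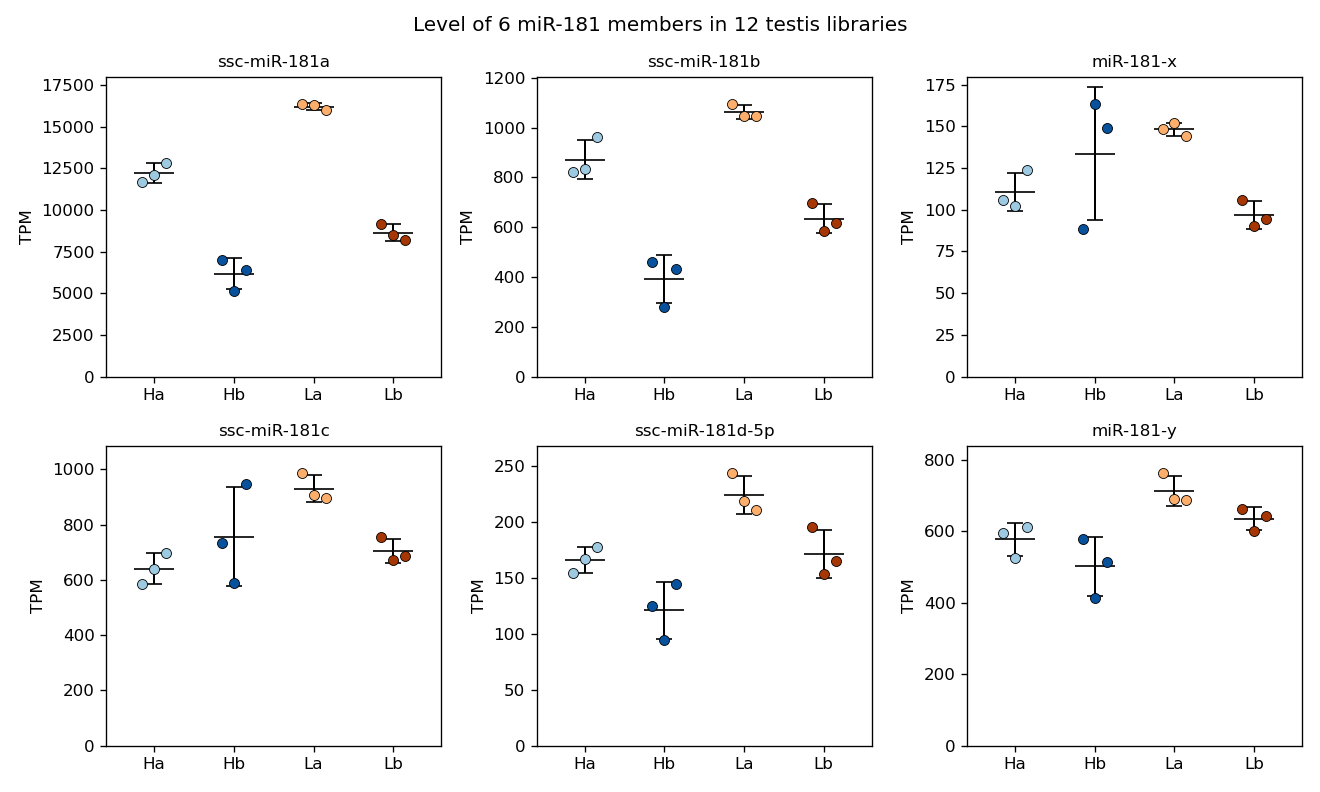
Level of 6 members in TPM (vertical axis) in Ha, Hb, La and Lb (horizontal axis); points are libraries, the long bar is the mean and the whiskers are 1 SD of 3 libraries. For ssc-miR-181a and ssc-miR-181b all libraries at 120 days lay below those of the same breed at 30 days, whereas ssc-miR-181c was between 590.2 and 945 TPM in Hb and between 584 and 698 in Ha.

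The members from the cluster on chromosome 2 fell with age in LC boars, and neither passed the test in HZ boars. The TPM of ssc-miR-181c was 584, 639 and 698 in Ha and 732, 590.2 and 945 in Hb, so the ages overlapped. In LC boars it was 985, 906 and 897 in La and 755, 673 and 685 in Lb, with no overlap. Its log2 fold change was 0.37 (standard error 0.257, adjusted p = 0.282 in edgeR's test) in Ha vs. Hb, where it passed the test without Hb replicate 1 (0.65, adjusted p = 0.0385) and in no other setting. Without Hb replicate 3 it was 0.202 (adjusted p = 0.654 in edgeR's test). In La vs. Lb it fell by 0.58 on the log2 scale (standard error 0.0943, adjusted p = 0.000339). The neighbouring ssc-miR-181d-5p stood at 154, 167 and 178 TPM in Ha and at 125, 94.0 and 144.2 in Hb, and at 243, 219 and 210.4 in La and 195, 153 and 165 in Lb. Its ages did not overlap in either breed, but the log2 fold change in Ha vs. Hb (-0.34, adjusted p = 0.335 in edgeR's test) did not pass. That value was -0.084 without Hb replicate 1 and -0.46 without Hb replicate 3. In La vs. Lb it fell by 0.57 (standard error 0.114, adjusted p = 0.00169 in edgeR's test).

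The 3p strand miR-181-y fell with age in LC boars and did not pass the test in HZ boars. It measured 597, 526 and 613 TPM in Ha, 579, 414 and 514 in Hb, 763, 691 and 689 in La and 664, 600.2 and 642 in Lb. The ages overlapped in HZ boars, with a log2 fold change of -0.083 (adjusted p = 0.809 by edgeR's test). In LC boars they did not, and it fell by 0.35 on the log2 scale (standard error 0.0958, adjusted p = 0.0117 in edgeR's test), a call lost with scaling by library size (-0.13), with all 12 libraries in 1 fit (-0.40) and without La replicate 3 (-0.35). The level of miR-181-x was 106, 102 and 124 TPM in Ha and 88.4, 163 and 149 in Hb, with Hb replicate 1 below all of Ha and the other two above. In LC boars it measured 149, 152 and 143.98 in La and 106, 90.0 and 94.3 in Lb, and fell by 0.80 (standard error 0.116, adjusted p = 0.000145 by edgeR's test). The log2 fold change in Ha vs. Hb was 0.50 (adjusted p = 0.286 by edgeR's test). It was 0.96 without Hb replicate 1, where it passed the test (adjusted p = 0.00982 by edgeR's test), and 0.098 without Hb replicate 2. No fold change is given for ssc-miR-181d-3p, whose group means lay between 0.183 and 0.313 TPM.

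At the study's thresholds (absolute log2 fold change above 1 and unadjusted p under 0.05), 1 of the 7 members was called in Ha vs. Hb, ssc-miR-181b, where 39.6% of all 1441 tested miRNAs were called and 14.4% were called lower. In La vs. Lb 1 was called as well, ssc-miR-181a, against 32.1% of 1446 in either direction and 5.81% lower. Most changes of the family were smaller than this fold. With an adjusted p under 0.05 at any fold change, a rule chosen after the values were seen, 2 of 7 were lower in Hb than in Ha (13.0% of all miRNAs were) and 6 of 7 were lower in Lb than in La (13.4% of all). Members whose TPM did not overlap and was lower at 120 days numbered 3 of 7 in HZ boars (20.7% of all tested miRNAs) and 6 of 7 in LC boars (14.0%). The median log2 fold change of the 7 members was -0.083 in HZ boars and -0.80 in LC boars, against 0.32 for all tested miRNAs in each of these comparisons. The median of all miRNAs depended on the filter for low counts. With filterByExpr it was 0.054 in HZ boars and 0.082 in LC boars, and that of the 6 members left was -0.15 and -0.68.

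**Figure D2:**
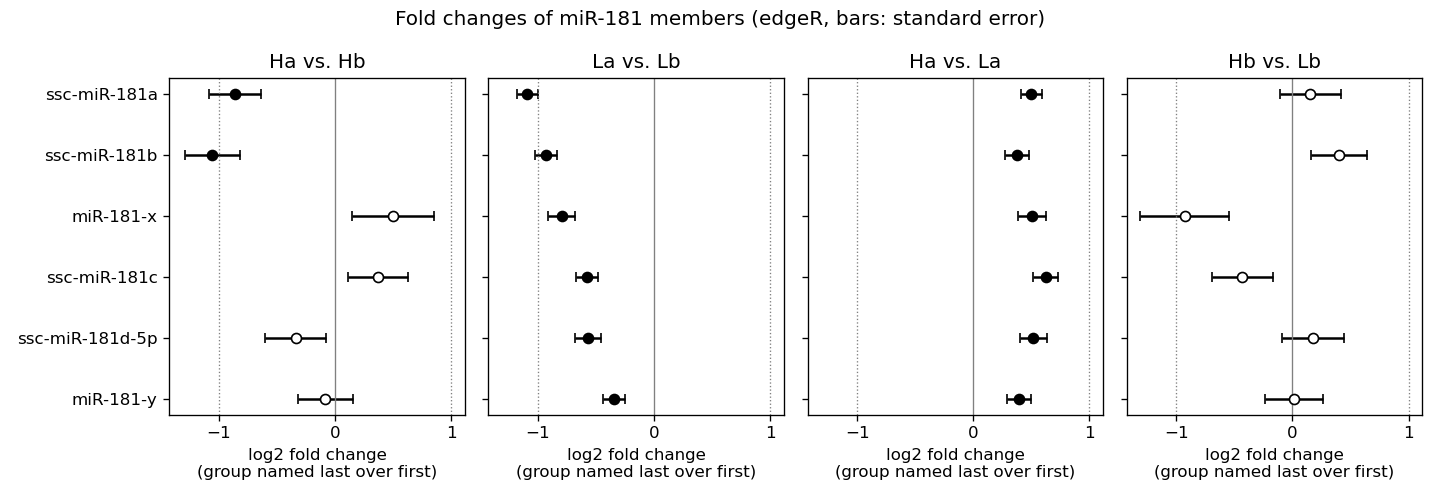
Log2 fold change (horizontal axis, group named last over group named first) of 6 members (vertical axis) in the 4 comparisons, from edgeR; bars are the standard error, filled points have an adjusted p under 0.05 and dotted lines mark a log2 fold change of 1 in either direction. All 6 were lower in Lb than in La and higher in La than in Ha, whereas no member passed in Hb vs. Lb.

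Between the breeds at 30 days the family was higher in LC boars. In Ha vs. La, 6 of the 7 members had an adjusted p under 0.05 and all 6 were higher in La, against 5.01% of the 1278 tested miRNAs. The same 6 had no overlap of TPM, against 10.7% of all miRNAs higher in La without overlap. The log2 fold changes lay between 0.37 for ssc-miR-181b (adjusted p = 0.0312 in edgeR's test) and 0.62 for ssc-miR-181c (standard error 0.107, adjusted p = 0.00231), so 0 of 7 members were called at the study's thresholds of fold and p together, at which 9.47% of all miRNAs were called. For ssc-miR-181a the log2 fold change was 0.498 (standard error 0.0901, adjusted p = 0.00321 in edgeR's test). The median of the 7 members was 0.498 and that of all miRNAs -0.011. With all 12 libraries in 1 fit of edgeR, none of the 7 had an adjusted p under 0.05 and 5 had an unadjusted p under 0.05. In that fit the values of ssc-miR-181a and ssc-miR-181c were 0.50 and 0.63, with adjusted p = 0.0899 and 0.0980 by edgeR's test. The number that passed fell to 2 without Ha replicate 1, to 3 without Ha replicate 2, La replicate 2 or La replicate 3, and to 4 without La replicate 1 or with scaling by library size.

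At 120 days no member differed between the breeds by the test. In Hb vs. Lb, edgeR's quasi-likelihood test gave 0 of 7 with an adjusted p under 0.05 (3.25% of 1444 miRNAs had one) and 0 at the study's thresholds (16.8%), 1 of 7 had an unadjusted p under 0.05, and DESeq2 also gave 0 of 7 after adjustment. That miRNA was miR-181-x, whose log2 fold change was -0.93 with a standard error of 0.383 (adjusted p = 0.175 in edgeR's test). Its size turned on single libraries of Hb and on the scaling. It was -1.28 without Hb replicate 1, where it passed (adjusted p = 0.0143 in edgeR's test), -0.37 without Hb replicate 2 (adjusted p = 0.520 in edgeR's test) and -0.45 with library size alone. The TPM of ssc-miR-181a, ssc-miR-181b, ssc-miR-181d-5p and miR-181-y was higher in every Lb library than in every Hb library, 4 of 7 members against 18.6% of all tested miRNAs. Scaled by TMM, however, the log2 fold changes of these 4 were 0.16, 0.402, 0.18 and 0.017, with adjusted p between 0.356 and 0.973 in edgeR's test. Their size depended on the scaling. With library size alone, which shifted the median of all miRNAs by 0.27 in this comparison, the values of ssc-miR-181a and ssc-miR-181b were 0.497 and 0.71.

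Whether the age effect differed between the breeds was tested as an interaction over all 12 libraries. In edgeR's quasi-likelihood test 0 of 7 members had an adjusted p under 0.05, as did 1.38% of all 1452 miRNAs, 2 of 7 had an unadjusted p under 0.05, and DESeq2 gave 2 of 7 after adjustment. The pair was ssc-miR-181c and miR-181-x. For ssc-miR-181c the age effect in LC boars was lower than that in HZ boars by -1.004 on the log2 scale (standard error 0.257, adjusted p = 0.0547 in edgeR's test). The adjusted p lay between 0.00232 and 0.221 over the alternatives, and the values passed with RLE normalization (-1.10), DESeq2 (-1.10), a filter on low counts (-1.05) and without Hb replicate 1 (-1.17). The difference was smaller with library size alone (-0.62, adjusted p = 0.221 in edgeR's test) and without Hb replicate 3 (-0.839, adjusted p = 0.0821 in edgeR's test). For miR-181-x the difference was -1.35 (standard error 0.408, adjusted p = 0.0822 in edgeR's test), and it passed with DESeq2 (-1.48) and without Hb replicate 1 (-1.69). It was smaller without Hb replicate 2 (-0.859, adjusted p = 0.135 in edgeR's test) and with library size alone (-0.861, adjusted p = 0.161 in edgeR's test). For ssc-miR-181b it was 0.073 (adjusted p = 0.998 in edgeR's test).

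Ratios of 2 members in the same library do not depend on how libraries are scaled. They were compared as log2 of the counts with 0.5 added, in 9 ratios, by an exact two-sided permutation test with the ages permuted within breed or the breeds within age, and p-values were adjusted over these 18 tests. The smallest p this test allows is 0.005. By age, 6 of the 9 ratios had an adjusted p under 0.05, each at that smallest p (adjusted p = 0.015), and by breed none did. In all 6 the libraries at 120 days did not overlap those of the same breed at 30 days. These 6 are not separate results, since they share members. Most have ssc-miR-181a, which itself fell with age in both breeds, as the denominator. How many miRNAs outside the family changed against ssc-miR-181a in the same way was not computed. The test by breed averages the ages, and for some ratios, not all, the breeds differed in opposite directions at 30 and 120 days. The log2 difference, LC minus HZ, was -0.25 and 0.80 for ssc-miR-181b over ssc-miR-181c. For ssc-miR-181d-5p over ssc-miR-181c it was -0.11 and 0.59. In these ratios the breeds did not overlap at either age. Differences at a single age were not tested.

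The ratio of ssc-miR-181c to ssc-miR-181a rose with age. It was 5.01, 5.29 and 5.44% in Ha and 10.5, 11.5 and 14.8% in Hb, and 6.03, 5.56 and 5.62% in La and 8.22, 7.92 and 8.37% in Lb. Each library at 120 days lay above all 6 at 30 days, and the difference was 1.21 on the log2 scale in HZ boars and 0.51 in LC boars (0.86 over both, exact permutation p = 0.005). The ratio of ssc-miR-181d-5p to ssc-miR-181a rose as well, from 1.36% ± 0.0330 in Ha to 1.96% ± 0.264 in Hb (SD of 3 libraries) and from 1.38% ± 0.0936 in La to 1.98% ± 0.163 in Lb, by 0.52 in HZ boars and 0.52 in LC boars. Against ssc-miR-181b, from which it differs by a single base, ssc-miR-181d-5p rose from 19.1% ± 0.802 in Ha to 31.3% ± 3.57 in Hb and from 21.1% ± 1.08 in La to 27.0% ± 0.883 in Lb. The members from chromosome 2 thus took a larger part of the counts with the shared seed at 120 days. That part was 5.76% ± 0.195 in Ha and 11.6% ± 1.76 in Hb, and 6.21% ± 0.279 in La and 8.56% ± 0.254 in Lb.

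**Figure D3:**
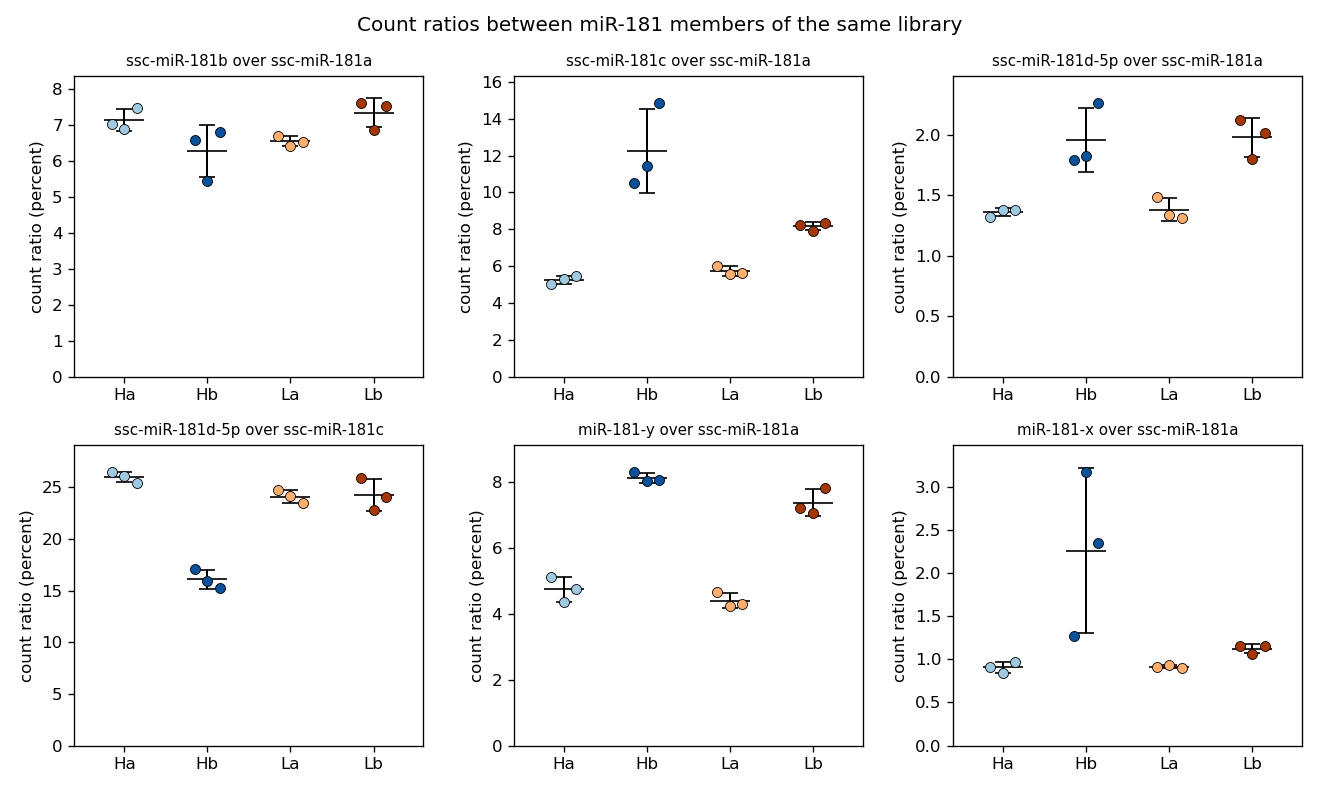
Count ratios between members of the same library in percent (vertical axes, each from 0) by group (horizontal axes); points are libraries, the long bar is the mean and the whiskers are 1 SD of 3 libraries. The ratio of ssc-miR-181d-5p to ssc-miR-181c lay between 15.2 and 17.1% in Hb and between 22.8 and 26.4% in the other groups.

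The order of ssc-miR-181b and ssc-miR-181c turned around with age. Counts of ssc-miR-181b were 130.5 to 140.4% of those of ssc-miR-181c in Ha and 111 to 116% in La, but 45.9 to 62.7% in Hb and 86.8 to 92.5% in Lb. All 6 libraries at 30 days thus held more ssc-miR-181b and all 6 at 120 days more ssc-miR-181c. The log2 ratio differed by -1.40 in HZ boars and by -0.35 in LC boars (-0.87 over both, exact permutation p = 0.005, adjusted p = 0.015).

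**Figure D4:**
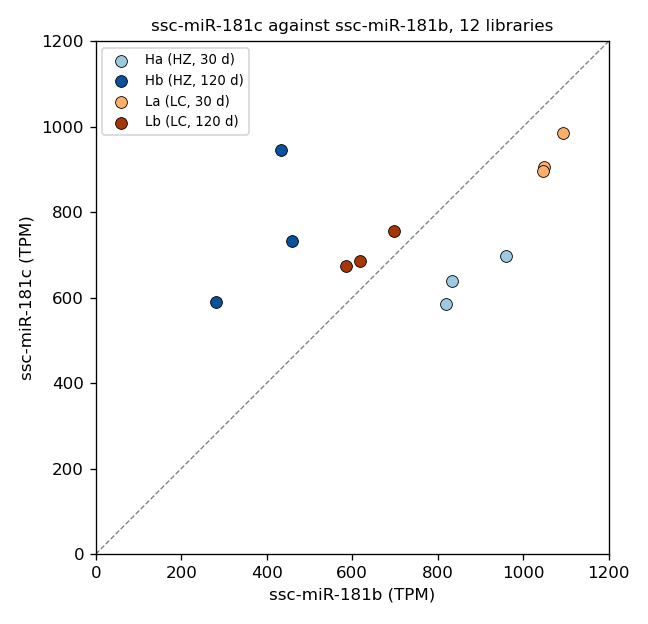
TPM of ssc-miR-181c (vertical axis) against TPM of ssc-miR-181b (horizontal axis) in the 12 libraries; the dashed line marks equal levels. The 6 libraries at 30 days lie below the line and the 6 at 120 days above it, with Hb farthest from it.

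The members of the chromosome 2 cluster did not keep a fixed ratio in every group. Counts of ssc-miR-181d-5p were 26.0% ± 0.518 (SD, n = 3) of those of ssc-miR-181c in Ha and 16.1% ± 0.913 in Hb, without overlap, and 24.1% ± 0.630 in La and 24.2% ± 1.54 in Lb, with overlap. Over both breeds the difference by age was -0.34 on the log2 scale, with an exact permutation p = 0.055 and an adjusted p = 0.124. It was -0.69 in HZ boars and 0.0076 in LC boars, and this difference between the breeds was not tested. For the clustered pair ssc-miR-181b and ssc-miR-181a the ages did not overlap in either breed, in opposite directions. Counts of ssc-miR-181b were 7.14% ± 0.302 of those of ssc-miR-181a in Ha and 6.28% ± 0.730 in Hb, and 6.55% ± 0.132 in La and 7.34% ± 0.405 in Lb. Their log2 ratio differed by -0.19 with age in HZ boars and by 0.16 in LC boars, so that the difference over both, -0.014 (exact permutation p = 0.905), averages opposite values. Hb replicate 2 held the lowest ratio (5.45%), with Hb replicates 1 and 3 at 6.58 and 6.81%.

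The ratio of miR-181-y to ssc-miR-181a rose with age, while the mean TPM of each was lower at 120 days in both breeds. Counts of miR-181-y were 4.75% ± 0.384 of those of ssc-miR-181a in Ha and 8.14% ± 0.150 in Hb, and 4.41% ± 0.230 in La and 7.38% ± 0.412 in Lb, a rise of 0.78 on the log2 scale in HZ boars and 0.74 in LC boars. The ratio also differed between the breeds by -0.12 (exact permutation p = 0.025, adjusted p = 0.0643), which did not pass. Because the hairpin of miR-181-y is not given, this is a ratio between 2 members and not a strand ratio of a single hairpin. The ratio of miR-181-y to ssc-miR-181c was not computed. Mean TPM of miR-181-y and ssc-miR-181c was 579 and 640 in Ha and 502 and 756 in Hb. In LC boars it was 714 and 930 in La and 636 and 704 in Lb. The strand ratio that the names do give was that of ssc-miR-181d-3p to ssc-miR-181d-5p, whose group means lay between 0.104 and 0.254%. It differed by 0.27 with age (exact permutation p = 0.565, adjusted p = 0.696), with 1 to 5 counts of the 3p strand behind each value. The count of miR-181-x stood at 0.910, 0.844 and 0.964% of ssc-miR-181a in Ha and at 1.27, 3.17 and 2.34% in Hb. In LC boars the ratio was 0.914% ± 0.0155 in La and 1.12% ± 0.0542 in Lb. The difference was 1.22 in HZ boars and 0.29 in LC boars on the log2 scale. The call over both (0.76) was lost without any 1 of the Ha replicates (0.73 to 0.78, exact permutation test with adjusted p between 0.075 and 0.0788). The HZ groups are then unequal in size, and labellings of the opposite sign also count in the two-sided test. The difference itself hardly changed, so the lost call does not show that it rests on a single Ha library.

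The levels of ssc-miR-181a and ssc-miR-181b followed each other over the 12 libraries (Pearson's r = 0.979 of log2(TPM + 1)), whereas r was 0.41 between ssc-miR-181a and ssc-miR-181c, 0.63 between ssc-miR-181c and ssc-miR-181d-5p and 0.88 between ssc-miR-181a and ssc-miR-181d-5p. Libraries of a group share their age and breed, so these values are descriptions. Among 431 miRNAs outside the family with a mean of at least 10 TPM, the pattern most like that of ssc-miR-181a was that of ssc-miR-199a-5p (r = 0.98), a miRNA known from mesenchymal cells. It measured 56592 ± 827 TPM (SD, n = 3) in Ha and 26648 ± 4864 in Hb, and 66082 ± 3341 in La and 36913 ± 3311 in Lb. Next were ssc-miR-199a-3p and ssc-miR-199b-3p (both 0.96). Their mean TPM was almost the same (6777.34 and 6776.54), so they do not count as 2 separate likenesses. For ssc-miR-181b the nearest were ssc-miR-92a (0.97), miR-199-x (0.96) and ssc-miR-199a-5p (0.96). Those of ssc-miR-181d-5p were miR-92-z (0.92), ssc-miR-17-3p (0.91) and ssc-miR-92b-3p (0.90). For ssc-miR-181c no miRNA came closer than 0.78 (miR-140-y and a predicted miRNA, with miR-10955-z at 0.75).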

How the data were processed

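Small RNA libraries of testes were compared between Ha, Hb, La and Lb. The authors filtered reads with fastp, discarded tags of rRNA, tRNA and similar RNAs and those on exons, introns or repeats of Sscrofa11.1, matched the rest to mature miRNAs of miRBase with bowtie, and used miRDeep2 to count known and predict further miRNAs. As deposited, the counts are unnormalized tags, and the deposited TPM scales them to a library total and writes 0 as 0.01. The GC percent and score of predicted hairpins that the authors deposited were not used.

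Counts of all listed miRNAs with at least 1 count in the libraries compared were fitted with edgeR 4.0.16 in R 4.3.3 (glmQLFit and glmQLFTest, TMM, not robust), separately for each comparison and over 12 libraries for the interaction. All 7 members were tested in each. P-values were adjusted over all miRNAs by the Benjamini-Hochberg method. The test was checked on simulated counts. Alternatives were RLE, library size alone, the Wald test of DESeq2 1.42.0, filterByExpr (which left 6 members), merged identical sequences, 1 fit of all libraries, the replicate number as a block, other added counts for ratios, and each library left out. The name rule was all members, miRNAs with a member's seed, and the 3 miRNAs most like each pig-named 5p member. Members, lists and tests were chosen with earlier results of these data known. Groups came from the sample titles.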

Additional observations from a re-analysis of the deposited data

Results flagged for a closer look

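The ratio of ssc-miR-181b to ssc-miR-181a moved in opposite directions with age in the breeds. In HZ boars every Hb library (5.45 to 6.81%) lay below every Ha library (6.90 to 7.48%), and in LC boars every Lb library (6.88 to 7.61%) lay above every La library (6.43 to 6.69%). The lowest Hb value was that of replicate 2. Hb replicates 1 and 3 stood at 6.58 and 6.81%, close to Ha replicate 2 (6.90%). The age difference of the log2 ratio was higher in LC than in HZ boars by 0.35, and this difference was not tested. Groups of 3 libraries were too small for a check of single libraries that stand apart.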

How the results depend on the processing

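At the study's thresholds the 1 member called in La vs. Lb became 0 with scaling by library size, which shifted the median of all miRNAs by 0.22 there. With an adjusted p under 0.05 at any fold change, the members numbered 2 by age in HZ boars, 6 by age in LC boars and 6 by breed at 30 days. At the study's thresholds, leaving out 1 library at a time gave 0 to 1 in Ha vs. Hb (0 without Ha replicate 3 or Hb replicate 1) and 0 to 1 in Hb vs. Lb (1 without Hb replicate 1). With the adjusted p it gave 1 to 4 in Ha vs. Hb (1 without Ha replicate 1 and 4 without Hb replicate 1). For the interaction the adjusted p gave 0 to 2 (2 without Hb replicate 1), RLE gave 1, filterByExpr 1 and DESeq2 2. The ratios that passed by breed numbered 0 to 1 (1 without Ha replicate 2), and those by age 5 to 6. Reversed values were all small. For miR-181-y they were -0.035 with RLE, -0.035 with DESeq2 and -0.035 with filterByExpr in Hb vs. Lb, with leave-one-out ranges of -0.087 to 0.19 there and -0.13 to 0.11 in Ha vs. Hb. For the interaction, library size alone gave 0.097 for ssc-miR-181a, 0.092 for ssc-miR-181d-5p and 0.058 for miR-181-y, and ssc-miR-181b gave -0.017 with RLE and -0.017 with DESeq2. Leaving out 1 library gave -0.045 to 0.035 for the ratio of ssc-miR-181b to ssc-miR-181a by age and -0.011 to 0.074 for that of ssc-miR-181d-5p to ssc-miR-181a by breed. The causes were not tested. With the replicate number as a block, the members with an adjusted p under 0.05 numbered 2 and 6 by age in HZ and LC boars and 6 and 0 by breed at 30 and 120 days, as without it. The numbers did not pair the libraries, since deviations of same-numbered libraries correlated by -0.156 to 0.126 and at most 1 of 3 libraries in a comparison correlated best with its own number. The counts of ssc-miR-181d-3p are too few to show a change.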
